A study of Sus scrofa with 8 samples.

Results

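The 9 genes described here, of 35683 listed in the files, are genes of the rod light response and of rod identity in the pig retina: SAG, GNAT1, PDE6A, PDE6B, PDE6G, CNGA1, GUCA1B, NRL and NR2E3. They were chosen as a named group, with earlier results of these data known, and no measured value entered the choice rule. Single-nucleus RNA sequencing (snRNAseq), which counts the distinct tagged transcripts (unique molecular identifiers, UMIs) of each nucleus, had been run on 8 retinas of 6 female Yucatan minipigs that were a few months old. The week 2 retinas came from 2 animals, the AAV-injected 7221 and the vehicle-injected 7222, each with its left and its right eye. The week 4 retinas were left eyes of 4 animals, 7248 and 7249 after AAV and 7250 and 7251 after vehicle. AAV-injected eyes had received 5e11 vector genomes of AAV2.7m8/CAG-GFP into the vitreous, and control eyes had received the vehicle buffer. All animals, vehicle controls included, had been given Vitrase (a hyaluronidase) into the vitreous of both eyes before dosing, and methylprednisolone by intramuscular injection before dosing and weekly from then on. The CAG promoter is not restricted to a cell type, so the transgene marks no one class of cells. In the labels every group is its own batch, and a batch difference cannot be told apart from one of treatment. The paper states that the eyes were processed individually, and the labels give each sample an animal number and an eye. At week 2 each arm is 1 animal.

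In the dark, a rod keeps its cyclic GMP high and its cation channels open. Light activates the rod transducin, whose alpha subunit is encoded by GNAT1, and transducin releases the inhibitory gamma subunit (PDE6G) from the catalytic subunits of the rod phosphodiesterase (PDE6A and PDE6B). Cyclic GMP then falls and the channel, of which CNGA1 encodes a subunit, closes. Arrestin, encoded by SAG, ends the signal of the activated visual pigment, and GUCA1B encodes a calcium sensor of the guanylate cyclase that restores cyclic GMP. NRL and NR2E3 are transcription factors of rod identity: NRL turns on rod genes and NR2E3, which lies downstream of it, holds cone genes down.

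In Sscrofa11.1, RefSeq places SAG at chr15:133704975-133741844, GNAT1 at chr13:32671377-32678394, PDE6A at chr2:150926652-150986050 and PDE6B at chr8:80378-111960. PDE6G lies at chr12:1235886-1239808, CNGA1 at chr8:37896460-37968935 and GUCA1B at chr7:37297901-37311158. NRL lies at chr7:75199048-75211655 and NR2E3 at chr1:169358662-169373175. The 250 bases before each annotated start were read from the genome and searched on both strands for TAATCC, the core that CRX and OTX2 recognize, and for TGCTGA, a core bound by NRL. TAATCC was found in 2 of the 9 windows, SAG and NR2E3, and in 5.41% of the windows of 19572 protein-coding genes. TGCTGA was found in 3 of the 9, SAG, PDE6B and NR2E3, and in 12.6% of all windows. The windows of SAG (chr15:133704725-133704974, plus strand) and NR2E3 (chr1:169358412-169358661, plus strand) are shown because they hold both cores, which stand in capitals in whichever strand they were found.

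SAG: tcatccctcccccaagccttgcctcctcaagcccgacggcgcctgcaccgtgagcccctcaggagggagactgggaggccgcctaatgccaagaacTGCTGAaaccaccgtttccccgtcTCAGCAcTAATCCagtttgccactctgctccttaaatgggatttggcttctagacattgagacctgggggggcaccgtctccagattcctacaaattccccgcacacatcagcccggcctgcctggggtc

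NR2E3: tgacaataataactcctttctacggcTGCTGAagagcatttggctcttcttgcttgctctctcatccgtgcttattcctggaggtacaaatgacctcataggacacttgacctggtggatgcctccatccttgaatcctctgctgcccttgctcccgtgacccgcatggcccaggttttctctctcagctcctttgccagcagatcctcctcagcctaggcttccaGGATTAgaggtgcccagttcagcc

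A match says only that these letters are present, and several of the 9 starts rest on predicted RefSeq models.

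The files held 388491 barcodes and between 121544835 and 173614051 UMIs per retina, and 350569 nuclei passed the filter on mitochondrial share. Of the barcode sequences, 17084 occurred in more than 1 retina. Nuclei were taken as rods from 13 rod markers, and for each member the gate was rebuilt without that gene, so that no member chose the nuclei in which it was measured. The gate with all markers held 127897 rod nuclei, between 8293 and 25969 per retina, with a median of 1506 to 2175 UMIs per nucleus. Levels are counts per 1000000 UMIs (CPM), summed over the rod nuclei of a retina, and nuclei of a retina were never used as replicates. With the gene left out of the gate, each member was lower in each of 9 other retinal classes than in the rod nuclei of the same retina, at 60.9% of the rod level or less in each of the 8 retinas. The other 8 members stayed in that gate, so this is a description and no test.

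The question at each week was whether rods of AAV-injected retinas held other levels of these transcripts than rods of vehicle-injected retinas. At week 4, PDE6G and SAG fell and GNAT1 and NRL rose, while PDE6A, PDE6B, CNGA1, GUCA1B and NR2E3 did not pass the test. PDE6G was at 0.489 times the vehicle level and SAG at 0.631 times. GNAT1 was at 1.22 times and NRL at 1.34 times. These are ratios of mean CPM and leave out the TMM scaling of the fit, whose log2 fold changes are given for each gene below. In UMIs per rod nucleus the ratios were 0.633 for PDE6G, 0.837 for SAG, 1.58 for GNAT1 and 1.74 for NRL. The median rod nucleus held 1930 and 2175 UMIs in the AAV-injected and 1506 and 1546 in the vehicle retinas. With library size scaling in the fit GNAT1 was not called (0.29, edgeR adjusted p = 0.0831). Of the 21537 genes tested with edgeR's quasi-likelihood test in the same fit, 8.5% were called lower and 6.28% higher at an adjusted p under 0.05. The median log2 fold change was -0.14 over the 9 members and 0.03 over all genes tested. The CPM of the 2 groups did not overlap for 7 of the 9 members, and for 61.4% of all genes tested.

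**Figure D1:**
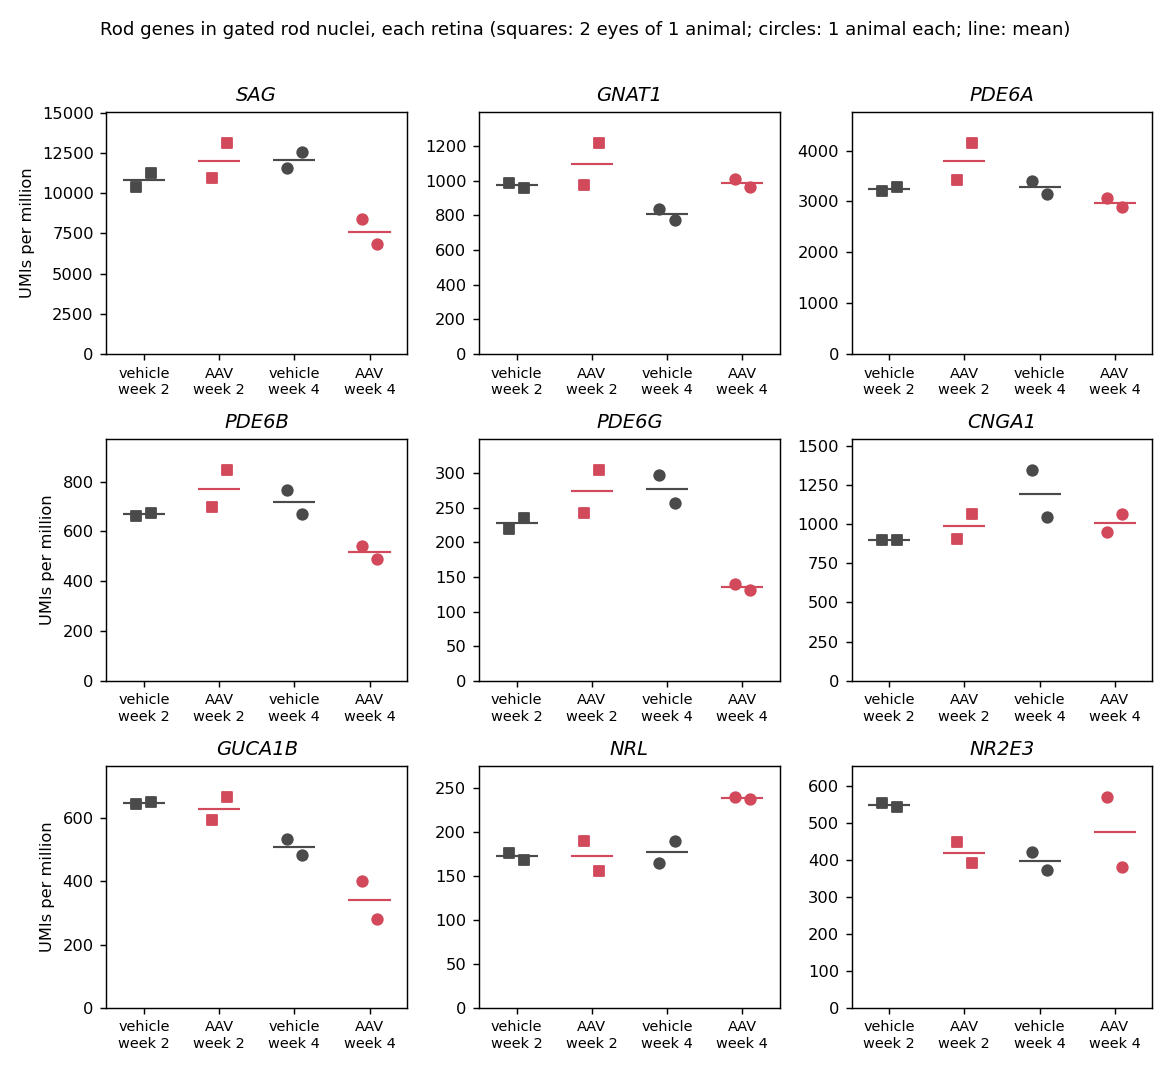
Level of each member in gated rod nuclei (counts per 1000000 UMIs, linear axis from 0), 1 point per retina with the group mean as a line; squares are the 2 eyes of 1 animal and circles are 1 animal each. At week 4 both AAV-injected retinas lie below both vehicle retinas for SAG, PDE6A, PDE6B, PDE6G and GUCA1B and above them for GNAT1 and NRL.

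Of the phosphodiesterase subunits, PDE6G, the inhibitory one, had the largest fold change of the 9 members. At week 2 it stood at 243 and 304 CPM in animal 7221 (AAV; left eye, then right eye) and at 219 and 235 CPM in animal 7222 (vehicle; same order). At week 4 it stood at 139 and 132 CPM in AAV-injected animals 7248 and 7249 and at 297 and 257 CPM in vehicle-injected animals 7250 and 7251. The week 4 groups lay far apart, at 136 ± 5.58 CPM against 277 ± 28.5 CPM (SD, n = 2 each), with a log2 fold change of -0.93 (SE 0.11, edgeR adjusted p = 0.0104). The fall was also seen in the share of rod nuclei with a UMI after nuclei of at least 1000 UMIs had been thinned to that number, 13.1% and 12.4% against 26% and 22.8%. Nuclei under 1000 UMIs were left out of thinned values, and with all markers in the gate they were 1.05% and 0.859% of rod nuclei in the AAV-injected and 8.3% and 7.38% in the vehicle retinas of week 4. Without thinning the shares were 25.7% and 26.8% against 38.6% and 34.9%. In amacrine nuclei, which should lack the gene, the thinned shares of the same 4 retinas were 1.19%, 0.951%, 3.58% and 3.08%. PDE6G was called lower when any 1 of the 4 retinas was left out, with adjusted p between 0.0107 and 0.047.

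The catalytic subunits, PDE6A and PDE6B, did not pass the test. PDE6B stood at 542 and 490.2 CPM in the AAV-injected retinas of week 4 and at 766 and 672 CPM in the vehicle retinas. The groups did not overlap, but the log2 fold change of -0.37 (SE 0.11) had an edgeR adjusted p of 0.0666. PDE6B was called lower under 6 of 12 other settings, among them 3 other ways of choosing rod nuclei, and under none of the 4 fits that left out a retina. At week 2 it stood at 699 and 846 CPM in the AAV-injected and at 663 and 673 CPM in the vehicle-injected animal. PDE6A stood at 3068 and 2887 CPM against 3409 and 3156 CPM at week 4, a log2 fold change of -0.04 (SE 0.09, edgeR adjusted p = 0.84). At week 2 PDE6A stood at 3428 and 4143 CPM against 3199 and 3285 CPM, so that the right eye of animal 7221 was the highest of the 8 retinas for both subunits. It was also the highest for SAG, GNAT1, PDE6G and GUCA1B.

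SAG, the arrestin that quenches the pigment, fell at week 4. It stood at 8396 and 6822 CPM in the AAV-injected retinas and at 11562 and 12559 CPM in the vehicle retinas, or 7609 ± 1113 against 12061 ± 705 CPM (SD, n = 2 each). At week 2 the 4 retinas overlapped, at 10932 and 13103 CPM in the AAV-injected and 10406 and 11284 CPM in the vehicle-injected animal. The 2 AAV-injected retinas of week 4 were thus the lowest of the 8. The log2 fold change was -0.56 (SE 0.11, edgeR adjusted p = 0.0291). SAG was called under all 12 other settings, but of the fits without 1 retina only the one without animal 7248 called it (adjusted p = 0.0152). The adjusted p was 0.0871 without animal 7249, 0.0902 without animal 7250 and 0.143 without animal 7251.

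GNAT1, the transducin alpha subunit, rose at week 4. It stood at 1009 and 961 CPM in the AAV-injected retinas and at 836 and 776 CPM in the vehicle retinas, with a log2 fold change of 0.39 (SE 0.09, edgeR adjusted p = 0.0411). At week 2 it stood at 973 and 1216 CPM against 985 and 959 CPM, so that the vehicle retinas of week 4 were the lowest of the 8 and the AAV-injected ones lay within the range of week 2. GNAT1 was called under 6 of 12 other settings and in none of the 4 fits without 1 retina, in which the adjusted p lay between 0.113 and 0.211. Rods chosen from the rod markers that are not members gave 0.28 (adjusted p = 0.0809), classes from all genes but the members 0.16 (adjusted p = 0.256), and rods without doublet-like nuclei 0.25 (adjusted p = 0.121).

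CNGA1, of the cyclic GMP channel, stood at 951 and 1063 CPM in the AAV-injected and at 1343 and 1043 CPM in the vehicle retinas of week 4. The groups overlapped, and the log2 fold change was -0.14 (SE 0.15, edgeR adjusted p = 0.604). The week 2 values were 902 and 1066 CPM against 899 and 896 CPM. GUCA1B, the calcium sensor of guanylate cyclase, stood at 401 and 280.0 CPM against 535 and 482 CPM at week 4. The groups did not overlap, but the log2 fold change of -0.48 (SE 0.16) had an edgeR adjusted p of 0.103, and only 2 of 12 other settings called it. Without animal 7248 it was called (-0.73, adjusted p = 0.0202). Its week 2 values were 593 and 666 CPM against 645 and 650.2 CPM.

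Of the transcription factors, NRL rose at week 4. It stood at 239.5 and 238 CPM in the AAV-injected retinas and at 165 and 190.0 CPM in the vehicle retinas, with a log2 fold change of 0.53 (SE 0.11, edgeR adjusted p = 0.0279). The values of week 2 were 189.7 and 156 CPM against 177 and 168 CPM, so that the AAV-injected retinas of week 4 were the highest of the 8. NRL was called under 9 of 12 other settings. It was not called with rods from the markers that are not members (0.38, adjusted p = 0.067), with classes from all genes but the members (0.29, adjusted p = 0.164) or without doublet-like nuclei (0.35, adjusted p = 0.126). Of the fits without 1 retina, the one without animal 7248 called it (adjusted p = 0.0485), and the others gave adjusted p of 0.0755 without animal 7249, 0.138 without animal 7250 and 0.0908 without animal 7251. NR2E3 stood at 569.5 and 381 CPM in the AAV-injected and at 422 and 374 CPM in the vehicle retinas. These overlapped, with a log2 fold change of 0.36 (SE 0.18, edgeR adjusted p = 0.238). It was called only without animal 7249 (0.60, adjusted p = 0.0479). At week 2 it stood at 448 and 392 CPM against 553 and 544 CPM. In UMIs per rod nucleus the NR2E3 groups of week 4 did not overlap, at 1.26 and 0.952 in the AAV-injected against 0.759 and 0.690 in the vehicle retinas.

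**Figure D2:**
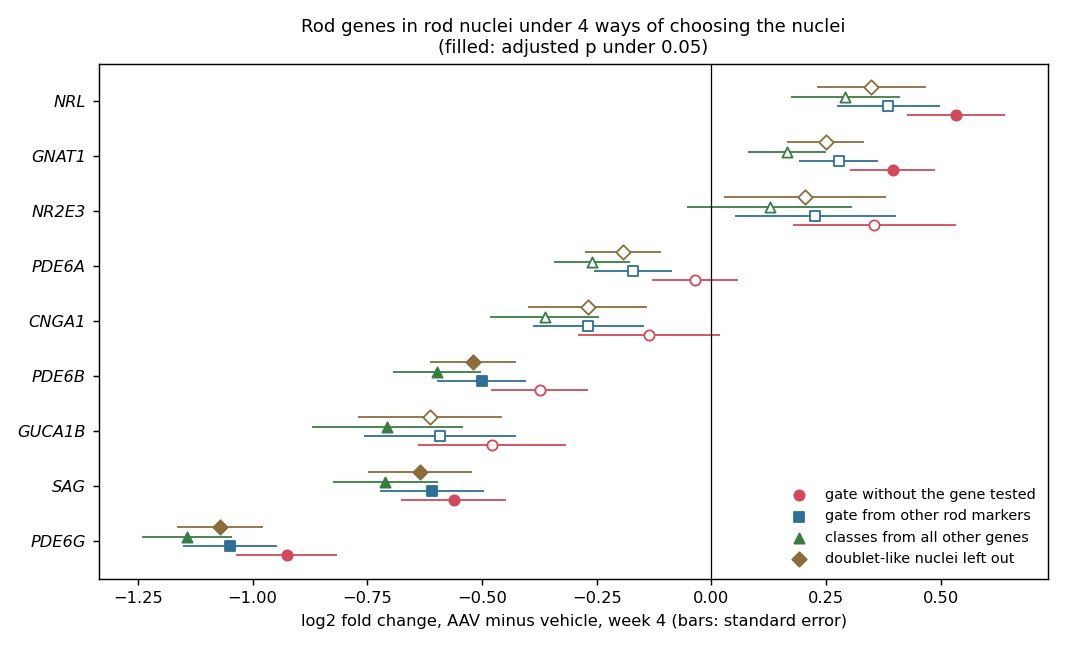
Fitted log2 fold change at week 4 (AAV minus vehicle, bars: standard error) of each member in rod nuclei chosen in 4 ways; filled symbols have an edgeR adjusted p under 0.05. PDE6G and SAG are filled under all 4 ways, PDE6B under 3, GUCA1B only with classes from all genes but the members, and NRL and GNAT1 only under the gate without the gene tested.

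The summed levels of markers of other classes in the rod nuclei moved with the groups of week 4, save those of ganglion cells. The ganglion markers overlapped, at 59.5 and 116.0 CPM in the AAV-injected and 111.6 and 85.8 CPM in the vehicle retinas. All these markers were in the gate, so rod nuclei were chosen in part by low counts of them. Over the 66 markers of classes other than rods and cones, the summed level in rod nuclei was 1283 and 1202 CPM in the AAV-injected retinas and 1716 and 1902 CPM in the vehicle retinas. At week 2 it lay between 1524 and 2139 CPM. The 7 cone markers summed to 88.2 and 90.2 CPM against 178 and 281 CPM, and the 7 Müller markers to 76.8 and 54.6 CPM against 330 and 384 CPM. In the other direction, the 9 lymphocyte markers summed to 44 and 27.3 CPM against 7.52 and 7.46 CPM, with CD3D, MS4A1 and CD79B at 0 in at least 1 retina of week 4. The 9 microglia or macrophage markers summed to 29.8 and 19.4 CPM against 15.7 and 15.4 CPM. The median rod nucleus also held more UMIs in the AAV-injected retinas, 1930 and 2175 against 1506 and 1546. The mean mitochondrial share of all kept nuclei was 0.056% and 0.049% against 0.099% and 0.103%. At week 2 it was 0.066% and 0.103% in animal 7221 and 0.065% and 0.078% in animal 7222. The AAV-injected retinas of week 4 were the lowest of the 8 for this share, as they were for SAG and PDE6G. They were also the lowest for PDE6A, PDE6B and GUCA1B, which were not called. The part of the mitochondrial share in the differences of the members was not tested. With nuclei thinned to 1000 UMIs, SAG, PDE6G, NRL and PDE6B were called and GNAT1 was not (adjusted p = 0.0797 by edgeR). The part of the markers in the differences of the members was not tested beyond the fits above that leave out doublet-like nuclei, in which PDE6G (-1.07), SAG (-0.63) and PDE6B (-0.52) were called and NRL and GNAT1 were not.

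The share of nuclei that were rods moved with the groups as well. At week 4 they were 47.5% and 55.4% of the kept nuclei in the AAV-injected retinas and 36.1% and 24.2% in the vehicle retinas, against 22.9%, 30.4%, 36.3% and 33.2% at week 2 in animals 7221 (left, right) and 7222 (left, right). The groups of week 4 did not overlap and differed by 21.3 percentage points. The exact permutation test, two-sided, gave p = 0.333, which is the smallest that 2 against 2 animals allow.

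Summed over all kept nuclei, NRL, GNAT1 and NR2E3 rose at week 4. In such a sum more rod nuclei and more RNA per rod cannot be told apart, and rods were 47.5% and 55.4% of nuclei in the AAV-injected and 36.1% and 24.2% in the vehicle retinas. NRL stood at 93.0 and 112.5 CPM against 49.7 and 44.7 CPM (log2 fold change 1.13, SE 0.14, edgeR adjusted p = 0.00783). GNAT1 stood at 398 and 459 CPM against 266 and 195 CPM (0.90, SE 0.18, edgeR adjusted p = 0.0309). NR2E3 stood at 223 and 180.0 CPM against 129 and 90.7 CPM (0.87, SE 0.19, edgeR adjusted p = 0.0404). In this fit 6.7% of 26698 genes were called higher. PDE6G, at 61.0 and 69.1 CPM against 112.6 and 81.2 CPM, had a log2 fold change of -0.57 (SE 0.18, edgeR adjusted p = 0.0967). The other members had fitted values between -0.07 for SAG and 0.55 for PDE6A, with none called. PDE6G was thus the member furthest below 0 in the sum, although the share of rod nuclei was higher in both AAV-injected retinas. No member was called without animal 7251, and DESeq2 called 5 (GNAT1, NRL and NR2E3 with PDE6A and PDE6G).

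At week 2, with 1 animal per arm and so no test, none of the 9 members differed more than 2-fold between the arms, as 3.45% of 16307 genes did. With both eyes of an animal summed, PDE6G was at 1.21 times the vehicle level, PDE6A at 1.18 times, PDE6B at 1.16 times, GNAT1 at 1.13 times, SAG at 1.12 times and CNGA1 at 1.103 times. GUCA1B was at 0.977 times and NRL at 0.996 times. NR2E3, at 0.761 times, was the member furthest below the vehicle level. The left eyes alone gave 1.05 times for SAG and 1.11 times for PDE6G, and the right eyes 1.16 times and 1.29 times.

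With treatment fitted over both weeks in 6 animals, no member was called by edgeR, against 0.432% of 23870 genes. GNAT1 alone of the members had an unadjusted p under 0.05, as had 10.3% of the genes (log2 fold change 0.29, adjusted p = 0.485), PDE6G was at -0.56 (SE 0.23, adjusted p = 0.486), and DESeq2 called 0 members as well. The difference between the weeks was tested as an interaction, which called 0.184% of the genes and no member. The unadjusted p was under 0.05 for 20.8% of the genes and for 5 members: PDE6G (-1.10, SE 0.21, adjusted p = 0.077), SAG (-0.61, SE 0.19, adjusted p = 0.145), PDE6B (-0.49, SE 0.20, adjusted p = 0.233), NRL (0.65, SE 0.19, adjusted p = 0.128) and NR2E3 (0.86, SE 0.32, adjusted p = 0.195). DESeq2 called 1 of them, PDE6G. These tests compare a difference between 2 and 2 animals with one between 1 and 1. For PDE6A, PDE6B and PDE6G the CPM of the groups overlapped at neither week, with the AAV-injected retinas higher at week 2 and lower at week 4. This was so for 15.4% of all genes tested at week 4, and 22.3% did not overlap in opposite directions in either order. For PDE6A it held in CPM only. Its UMIs per rod nucleus were higher in the AAV-injected retinas at both weeks, with week 4 means of 7.01 against 5.97. The thinned shares of rod nuclei with a PDE6A UMI overlapped at both weeks.

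Transcripts of rods also occurred in nuclei gated as other classes. Each member was measured with that gene left out of the gate and the other 8 kept in it. Free RNA of rods can put a UMI into a nucleus of another class, and the source of these counts was not tested. The lowest levels were in ganglion cells, with medians over the 8 retinas of 1.21% to 1.81% of the rod level for 8 of the members and 5.46% for PDE6G. In amacrine nuclei they lay between 3.34% and 4.44% for SAG, GNAT1, PDE6A, PDE6B, GUCA1B, NRL and NR2E3 and at 4.70% for CNGA1, and PDE6G again stood above the rest, at 9.77%. Bipolar nuclei held 10.7% to 12.9% for 8 members and 18.8% for PDE6G. As a share of the rod level, SAG in bipolar nuclei was lowest of the 8 retinas in the right eye of animal 7221, at 5.45%. In CPM it stood there at 714 against 1505 in the left eye, and at 706 in animal 7249. With all markers in the gate, the median bipolar nucleus of animal 7221 held 4278 UMIs in the right and 3090 in the left eye.

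In cones the members stood at unequal shares of their rod levels. SAG stood there at a median of 46.9% of the rod level (range 40.1% to 50.4%), GUCA1B at 35.4% (30.5% to 60.9%) and PDE6G at 28.6% (24.9% to 31.8%), and the other 6 members between 11.3% and 13.5%. SAG was found in 90.1% to 97.3% of cone nuclei after thinning to 1000 UMIs, against 98.7% to 99.9% of rod nuclei and 16.3% to 32% of amacrine nuclei. The level of SAG divided by that of GNAT1 had a median over the 8 retinas of 37.4 in cones and 11.0 in rods. In the other classes the median ran from 5.36 in horizontal nuclei to 14.1 in Müller nuclei. The lowest ratio among cones of the 8 retinas (30) was above the highest among rods (16.2). What gives rise to the counts in cones was not tested.

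**Figure D3:**
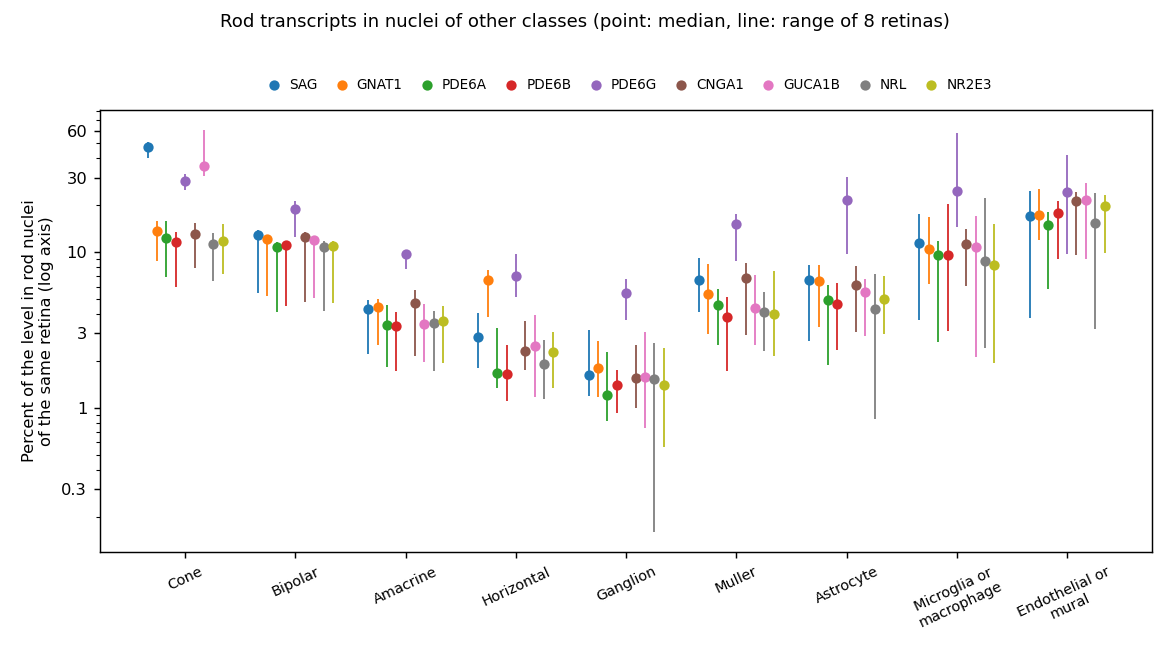
Level of each member in nuclei of 9 other classes as a percentage of its level in rod nuclei of the same retina (log axis), with the point at the median and the line over the range of 8 retinas. SAG, GUCA1B and PDE6G stand apart from the other members in cones, and PDE6G stands above the other members in bipolar, amacrine, ganglion, Müller, astrocyte and microglia nuclei.

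At week 4, PDE6G fell in 7 of the 9 other classes that could be tested: cone, bipolar, amacrine, ganglion, Müller, astrocyte and microglia or macrophage nuclei. In Müller nuclei it stood at 12.2 and 14.1 CPM in the AAV-injected and at 52.2 and 41.7 CPM in the vehicle retinas (log2 fold change -1.86, SE 0.17, edgeR adjusted p = 0.000552). In bipolar nuclei it stood at 23.2 and 22.7 CPM against 63.4 and 48.4 CPM (-1.27, SE 0.15), and in cone nuclei at 37.1 and 37.7 CPM against 74.0 and 74.4 CPM (-0.93, SE 0.11). In each of these 3 classes the AAV-injected retinas of week 4 were the lowest of the 8. SAG fell in bipolar, ganglion, Müller and astrocyte nuclei, with -0.86 (SE 0.14) in bipolar nuclei at 983 and 706 CPM against 1490.4 and 1612 CPM. In cones SAG had -0.54 (SE 0.14) and did not pass.

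Over the 9 classes, 18 of the tests called a member lower and none called one higher. A call concerns the counts found in those nuclei, which need not be expression by that class. The counts of members called lower stand beside the share of all genes called lower in the same fit. In Müller nuclei 7 of the 9 members fell, all but NRL and NR2E3, with 12.1% of all genes called lower there. In astrocytes 3 fell (SAG, PDE6G and CNGA1), with 7.28% of genes. The counts were 2 in cones (PDE6B and PDE6G) with 1.12%, 2 in bipolar nuclei with 1.49% and 2 in ganglion nuclei with 0.799%. They were 1 in amacrine nuclei with 0.977% and 1 in microglia or macrophage nuclei with 2.41%. None was called in horizontal nuclei with 1.55% (2 members and 19.2% of genes at an unadjusted p under 0.05) or in endothelial or mural nuclei with 0.323% (1 member and 12.4% of genes). GNAT1, which rose in rods, had fitted values of 0.04 in cones, 0.16 in bipolar, 0.42 in amacrine and -0.72 in Müller nuclei, and only the last was called. NRL was called in none of the 9. With SAG left out of the gate, the number of Müller nuclei ran from 753 in animal 7249 to 6388 in the left eye of animal 7222. It moved with the groups of week 4. In the gate with all markers it was 1896 and 724 in the AAV-injected and 4949 and 5138 in the vehicle retinas. With all markers kept in the gate, the depth moved with the groups of week 4, at a median of 5087 and 5349 UMIs per Müller nucleus in the AAV-injected and 2119 and 1903 in the vehicle retinas, and at 10096 and 10665 against 4692 and 4785 per astrocyte nucleus. The part of this depth and of the number of nuclei in the falls was not tested. Lymphocyte nuclei were not tested, since the vehicle retinas of week 4 held none.

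**Figure D4:**
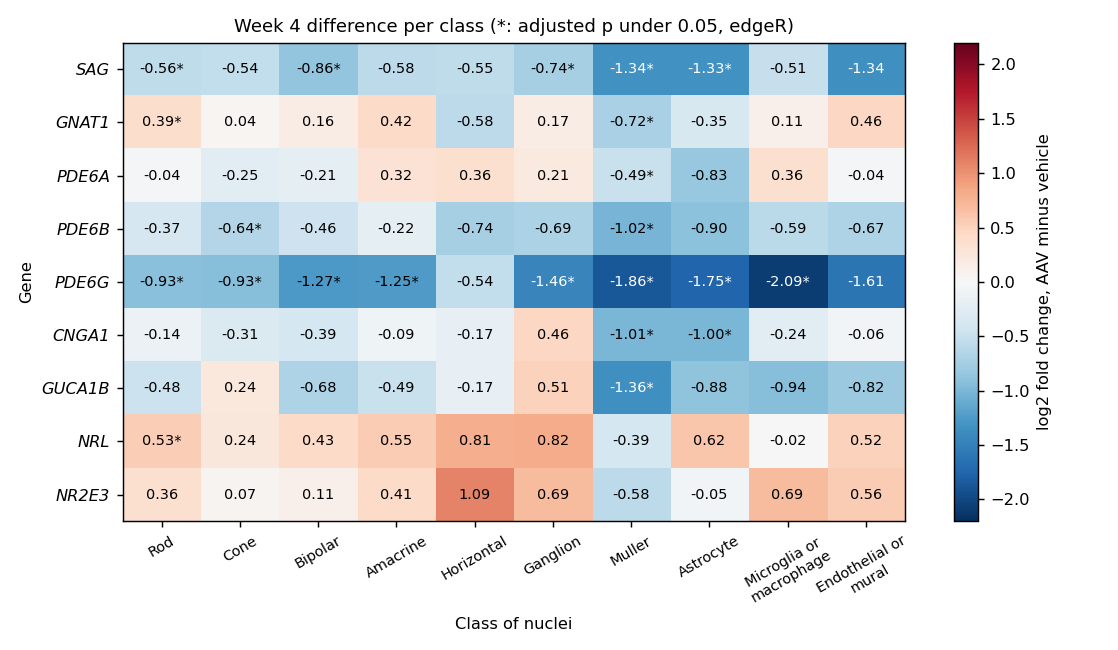
Fitted log2 fold change at week 4 (AAV minus vehicle; blue lower, red higher) of each member in rod nuclei and in 9 other classes, with an asterisk where the edgeR adjusted p is under 0.05. PDE6G is below 0 in each class shown, down to -2.09 in microglia or macrophage nuclei, while GNAT1 and NRL pass the test as higher in rods and in no other class shown, a difference between classes that was not tested.

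Among the other genes of rod phototransduction, 11 were tested in rod nuclei at week 4, of which 1 rose, 2 fell and 8 did not pass (median log2 fold change -0.03). Of all genes tested in this fit, 6.28% were called higher and 8.5% lower, shares that stand beside the counts of each list. RGS9, which speeds the shutoff of transducin, rose by 0.40, and its membrane anchor RGS9BP fell by 0.66, from 125 and 103 CPM in the vehicle retinas to 71.6 and 62.5 CPM. GUCA1A, like GUCA1B a sensor of guanylate cyclase, fell by 0.52, to 63.6 and 64.6 CPM from 101 and 96.7 CPM. The 8 photoreceptor transcription factors had 4 that rose, 1 that fell and 3 that did not pass (median 0.47). PRDM1, which steers precursors away from the bipolar fate, had the largest rise of these, 1.353, from 1.97 and 1.80 CPM to 4.65 and 4.34 CPM. At these low levels it was not called without doublet-like nuclei, and the sum of lymphocyte markers in rod nuclei was also higher in both AAV-injected retinas. Whether the PRDM1 counts came from rods was not tested. NEUROD1 rose by 0.86, OTX2, which acts upstream of CRX, by 0.83, from 113.3 and 96.1 CPM to 181 and 166 CPM, and SAMD7 by 0.59, from 1618 and 1310 CPM to 1916 and 2160 CPM. At week 2 SAMD7 stood the other way, at 1553 and 1480 CPM in the eyes of the AAV-injected animal and 2524 and 2614 CPM in those of the vehicle animal, which were above all 4 retinas of week 4. NEUROD1 and OTX2 were also lower in both AAV-injected eyes of week 2, at 69.2 and 72.1 CPM against 81.4 and 82.7 CPM for NEUROD1. PRDM1 was higher in both of these eyes, at 3.08 and 2.58 CPM against 1.16 and 1.61 CPM. ESRRB, an orphan nuclear receptor of rods, fell by 0.63, from 923 and 883 CPM to 589.7 and 500.03 CPM. At week 2 ESRRB was higher in both eyes of the AAV-injected animal, at 943 and 1217 CPM against 865 and 873 CPM. So was RGS9BP, at 114 and 127 CPM against 110 and 104 CPM.

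Of 13 outer segment and cilium genes, 2 rose and 11 did not pass (median 0.02). They were IMPG2, a proteoglycan of the matrix around photoreceptors (0.62), and PROM1, needed for disc formation (0.58). At week 2 IMPG2 was lower in both eyes of the AAV-injected animal, at 1051 and 1177 CPM against 1281 and 1247 CPM. Of 7 genes of the rod synapse and related functions, 2 fell and 5 did not pass (median 0.11). The shares of all genes called were, as above, 6.28% higher and 8.5% lower. CACNA1F, the calcium channel of the photoreceptor terminal, fell by 0.62, and UNC119, which carries lipidated proteins such as transducin, fell by 0.50. The 8 cone phototransduction genes measured in rod nuclei include the 7 cone markers of the gate, which was not rebuilt without them. Rod nuclei were thus chosen in part by low counts of these 7 genes, and their values are a description with no test. All 7 had lower levels in both AAV-injected retinas of week 4, as the sum of cone markers above already shows. CNGB3, a subunit of the cone channel, stood at 12.1 and 7.59 CPM against 26.4 and 50.9 CPM, and ARR3, the cone arrestin, at 50.0 and 56.7 CPM against 105 and 137 CPM. GRK7, the cone opsin kinase, is no marker of the gate and fell by 1.07, from 16.0 and 24.1 CPM to 10.0 and 7.75 CPM. At week 2 GRK7 was higher in both eyes of the AAV-injected animal, at 30.3 and 19.5 CPM against 12.2 and 16.5 CPM. The gate chose rod nuclei in part by low counts of other cone genes, and the part of that choice in the fall of GRK7 was not tested. The 13 calls over these lists, those of the cone markers left out, were by edgeR with adjusted p between 0.0155 and 0.048. Without animal 7251 none of the 13 was called, without animal 7250 1 was (OTX2), without animal 7249 3 and without animal 7248 10. With classes from all genes but the members 10 of the 13 were called (not RGS9, SAMD7 or PROM1), and without doublet-like nuclei 7 (not RGS9, PRDM1, NEUROD1, SAMD7, PROM1 or GRK7).

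Over the 8 retinas, the geometric mean of the members' levels (CPM + 1) in rod nuclei was 870.1 and 968 in the eyes of animal 7221, 866 and 876 in those of animal 7222, 778 and 686 in animals 7248 and 7249, and 899 and 833 in animals 7250 and 7251. The AAV-injected retinas of week 4 were the lowest. Of 7794 genes compared, those whose log2 CPM followed the members' mean most closely over the 8 retinas were ACVR2B (Pearson's r = 0.988), GNB1 (0.98), NRF1 (0.977), TBC1D10A (0.976) and SETBP1 (0.976). GNB1, which encodes the beta subunit of rod transducin, stood at 1332 and 1095 CPM in the AAV-injected and at 1533 and 1449 CPM in the vehicle retinas of week 4. It did not pass the test at week 4 (log2 fold change -0.19, SE 0.11, edgeR adjusted p = 0.283). These values describe the 8 retinas, which share libraries, scaling and, at week 2, animals.

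Rod nuclei of each AAV-injected retina were also split by whether they held a UMI of EGFP. Free EGFP RNA can put a UMI into a nucleus that does not express it, and that background was not measured in these retinas, so the split need not separate transduced from other rods. A UMI of EGFP was found in 4.39% (left eye) and 7.07% (right eye) of rod nuclei of animal 7221 and in 4.78% and 4.44% in animals 7248 and 7249. In the vehicle retinas it was found in 1 nucleus of 14506 in the right eye of animal 7222 (0.00689%) and in none of 17870, 15808 and 9952 in the other 3, which allows at most 0.0371% (exact binomial 95% limit). In the 4 AAV-injected retinas, the level of the 9 members in EGFP-positive rod nuclei was divided by that in EGFP-negative ones, which gave 36 ratios. Of these, 35 were below 1, with a median of 0.909 and a range of 0.727 to 1.01. EGFP-positive rod nuclei held more UMIs, with medians of 2121 against 1964, 1833 against 1676, 2187 against 1919 and 2513 against 2158. With nuclei of at least 1000 UMIs thinned to that number before EGFP and the members were counted, which left out 6.14% and 13.7% of the rod nuclei of animal 7221 and 1.05% and 0.859% of those of animals 7248 and 7249, 15 of the 36 were below 1, with a median of 1.01 and a range of 0.843 to 1.23. For PDE6G, which fell at week 4, the thinned ratios of animals 7248 and 7249 were 1.05 and 1.02, and for SAG they were 1.001 and 1.02. At equal depth the ratios thus lay on both sides of 1.

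**Figure D5:**
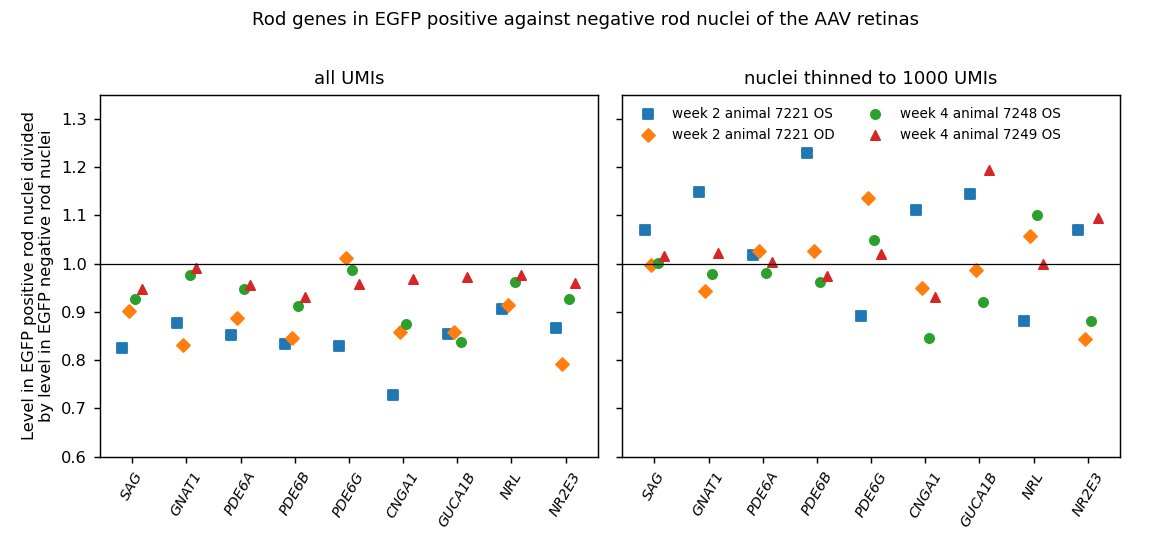
Ratio of each member's level in EGFP-positive to EGFP-negative rod nuclei of the same retina, 1 point per AAV-injected retina, with all UMIs (left) and with nuclei thinned to 1000 UMIs (right); the line is at 1. With all UMIs 35 of 36 ratios lie below 1, and after thinning 15 of 36 do.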

How the data were processed

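Before deposit, the authors aligned reads to Sscrofa11.1 (Ensembl annotation) plus EGFP with Cell Ranger 8.0.0, took from it UMI counts for every gene in every nucleus and deposited the counts without normalization, 4 lanes per retina, which were joined here. No cell type is given per nucleus. Nuclei were filtered by a mixture model of mitochondrial share after miQC (posterior 0.75). Of 86 markers of 11 classes, a multinomial gate (seeds of 3 markers, posterior 0.95, 3 rounds, at least 2 markers detected) assigned classes, leaving out in turn each rod marker. The gate's settings were chosen after counts had been seen, no doublet caller was run, and a nucleus counted as doublet-like when it held 2 or more markers of another non-photoreceptor class. UMIs were summed per retina and tested with edgeR 4.0.16 (quasi-likelihood, TMM, filter on low counts, Benjamini-Hochberg over all genes tested, threshold 0.05), with DESeq2 1.42.0 as an alternative, in R 4.3.3. Class fits needed 50000 UMIs in each week 4 retina. Scripts were tested on simulated counts. Depth sets counting error only, and intervals leave out differences between animals.

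The members and lists were chosen with earlier results of these data known. Named genes are the 9 members, the genes of 5 lists past the threshold at week 4 (up to 4 rises and 4 falls a list), and the 5 most like the members' mean among genes with a mean of at least 10 CPM. Of the cone list CNGB3, ARR3 and GRK7 are described, and PDE6H and PDE6C, also past the threshold, are named only here. In the week 2 background, genes had at least 1 CPM. Week 4 animals were killed on more than 1 day in the study, and the labels do not give the day. Coordinates and sequence are from RefSeq's annotation of Sscrofa11.1, the build of the files. Of the lists' genes, CNGB1, GUCY2F, RP1L1, EYS, REEP6, GNGT2 and GUCA1C were not matched by symbol, and 1 further listed gene is not reported here.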

Additional observations from a re-analysis of the deposited data

Results flagged for a closer look

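For 3 members both eyes of the AAV-injected animal lay above both eyes of the vehicle-injected animal at week 2, and both AAV-injected retinas lay below both vehicle retinas at week 4. Of all genes tested at week 4, 15.4% had this pattern. The 3 members were PDE6G, PDE6B and PDE6A, the subunits of the rod phosphodiesterase. For PDE6A the pattern held in CPM but not in UMIs per rod nucleus, which were higher in the AAV-injected retinas at both weeks. The difference of the week 4 from the week 2 log2 fold change was -1.10 for PDE6G (edgeR interaction test, adjusted p = 0.077), -0.49 for PDE6B (adjusted p = 0.233) and -0.16 for PDE6A (adjusted p = 0.624). None of the 3 passed the test over all genes, and week 2 rests on 1 animal per arm.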

How the results depend on the processing

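Of the 9 members, PDE6G kept its call in rods at week 4 under all 12 other settings and all 4 fits without 1 retina, with log2 fold changes between -1.14 and -0.81. The number called in rods at week 4, 4 as reported, lay between 1 and 4 when 1 retina was left out and between 3 and 6 under the 12 other settings, 6 being without a filter on low counts. Over all nuclei it was 3, 5 by DESeq2, and between 0 and 4 without 1 retina. DESeq2 called 1 member in the interaction, and the thinned EGFP ratios below 1 were 15 of 36. Some members that were not called changed sign. Without 1 retina, PDE6A in rods at week 4 ran from -0.098 to 0.028, CNGA1 from -0.32 to 0.064, and over all nuclei SAG from -0.15 to 0.032, PDE6B from -0.049 to 0.50 and GUCA1B from -0.13 to 0.28. The positive values of PDE6A, CNGA1 and SAG were those without vehicle animal 7250. The negative value of PDE6B was without animal 7251, and GUCA1B was negative without animal 7251 and without animal 7248 (-0.06). Over both weeks PDE6A turned to -0.040 with the gate from rod markers that are not members and to -0.039 with left eyes only, which also turned the interaction of PDE6A (0.015) and CNGA1 (0.0051). The causes were not tested. Library size scaling in place of TMM moved the median log2 fold change of all genes from 0.03 to -0.08, a shift of -0.11, and the share of calls that were higher from 42.5% to 33.2%, with GNAT1 no longer called. Rod share at week 4 differed by 17.6 to 22.9 points under the 3 alternatives. With at least 4 markers per class, 6 classes could be fitted, and 13 tests called a member lower in place of 14 in those classes. Week 4 vehicle retinas had the fewest UMIs per rod nucleus, which limits rare transcripts. No paired analysis was possible because AAV-injected and vehicle-injected retinas are of different animals and their replicate numbers follow accession order only.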

Other observations

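In horizontal nuclei, GNAT1 stood apart from most members. Its median over 8 retinas was 6.59% of the rod level (range 3.81% to 7.63%), against medians of 1.64% to 2.85% for the other members except PDE6G (7.04%). The ratio of PDE6A to GNAT1 counts had a median of 0.915 in horizontal nuclei and 3.42 in rods. These horizontal values rest on 53 to 261 GNAT1 UMIs per retina, and they were 46.0 and 36.6 CPM in the AAV-injected and 63.8 and 54.8 CPM in the vehicle retinas of week 4 (edgeR log2 fold change -0.58, SE 0.22, adjusted p = 0.189).

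In cones, GUCA1B stood at 244 and 151 CPM in the AAV-injected retinas of week 4, at 163 and 184 CPM in the vehicle retinas, and between 199 and 228 CPM at week 2, which was 60.9% and 53.8% of the rod level in the AAV-injected retinas of week 4, 30.5% and 38.1% in the vehicle retinas and between 30.8% and 36.7% at week 2.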
